A study of Homo sapiens with 30 samples.

Results

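The cohesin ring, its loader and release factors and the boundary protein CTCF were followed through sorting and constricted migration in the human melanoma cell line A375. The genes were taken by symbol: SMC1A, SMC3, RAD21, STAG1, STAG2, NIPBL, MAU2, PDS5A, PDS5B and CTCF. They are 10 of the 26364 genes listed in the count files. All 10 passed the filter on low counts, which left 15381 genes, and the lowest count of any of them in any library was 253.

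Cohesin is a ring of SMC1A, SMC3 and the kleisin RAD21 that encircles DNA, with either STAG1 or STAG2 bound to RAD21. NIPBL and MAU2 load the ring and NIPBL drives it to extrude chromatin loops, PDS5A and PDS5B bind it and take part in its pausing and release, and CTCF stops it at oriented binding sites, which sets loop anchors and domain boundaries. The same ring holds sister chromatids together from replication to mitosis, so its genes serve both genome folding and cell division.

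Polyadenylated RNA was sequenced from 30 libraries, 3 in each of 10 groups, and per its title, the study asks which changes of genome folding were there beforehand and which migration induced. All groups were A375 cells stained for integrin β4 (ITGB4) and sorted as negative or positive against a gate set on unstained cells, and migration was through transwell filters with 5 µm pores coated with fibronectin. Bottom 10 positive and Bottom 10 negative cells were those that had crossed in 10 rounds. Top 10 positive and Top 10 negative cells had stayed on top over 10 rounds. Sorted positive then Bottom 5 and Sorted negative then Bottom 4 cells were sorted first and then crossed in 5 and 4 rounds. Bottom 5 negative cells had crossed in 5 rounds, and Top 5 positive cells had stayed on top over 5 rounds. Parental positive and Parental negative cells were sorted without migration. Cells that crossed were expanded between rounds, so each group is a repeatedly selected culture, and the labels do not say whether replicates were separate cultures. P-values therefore measure only the spread between these libraries.

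The libraries held between 14258919 and 29134945 gene counts. The pigment cell markers SOX10, MITF, PRAME, MIA and S100B were present, whereas MLANA, PMEL, TYR and DCT had medians under 1 CPM, the count scaled to library size. ITGB4, the sorted protein's own transcript, averaged 100 ± 66.6 CPM in Parental positive and 27.8 ± 5.13 CPM in Parental negative cells (SD, n = 3 each). It averaged 130 ± 113 CPM in Bottom 10 positive and 49.0 ± 33.9 CPM in Bottom 10 negative cells, and 28.9 ± 24.5 CPM in Top 10 positive and 7.38 ± 5.17 CPM in Top 10 negative cells. Among the cells of fewer rounds it averaged 194 ± 149 CPM in Sorted positive then Bottom 5, 135 ± 162 CPM in Sorted negative then Bottom 4, 86.3 ± 61.2 CPM in Bottom 5 negative and 28.2 ± 14.9 CPM in Top 5 positive cells. The ITGB4 transcript means of positive and negative groups thus overlapped across the series. On the second principal component, which held 21.2% of the variance of log levels, 6 libraries scored above 30 and stood apart from the other 24. They were Bottom 10 positive replicate 3, Top 10 negative replicate 1, Sorted negative then Bottom 4 replicate 2, Bottom 5 negative replicate 2, and Top 5 positive replicates 1 and 3.

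No gene of the group passed an adjusted p of 0.05 in edgeR's quasi-likelihood test in any of 20 comparisons, and 19 of the 200 values had an unadjusted p under 0.05, against 7.88% over all genes and comparisons. DESeq2 called 1 of the 10 genes in each of 4 comparisons, and the share of all genes that it called there is not given here. The log2 fold changes ran from -0.80 to 0.56. For 170 of the 200, the 95% interval lay within 2-fold in either direction, so for most of them a larger change was outside the interval. STAG2 in the mean over sorts of Bottom 10 against Top 10 came nearest to the threshold (edgeR adjusted p = 0.0627). STAG2, PDS5B and RAD21 each passed it under some of the other settings tried, as did SMC1A and STAG1 when 1 Top 5 positive library was left out.

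**Figure D1:**
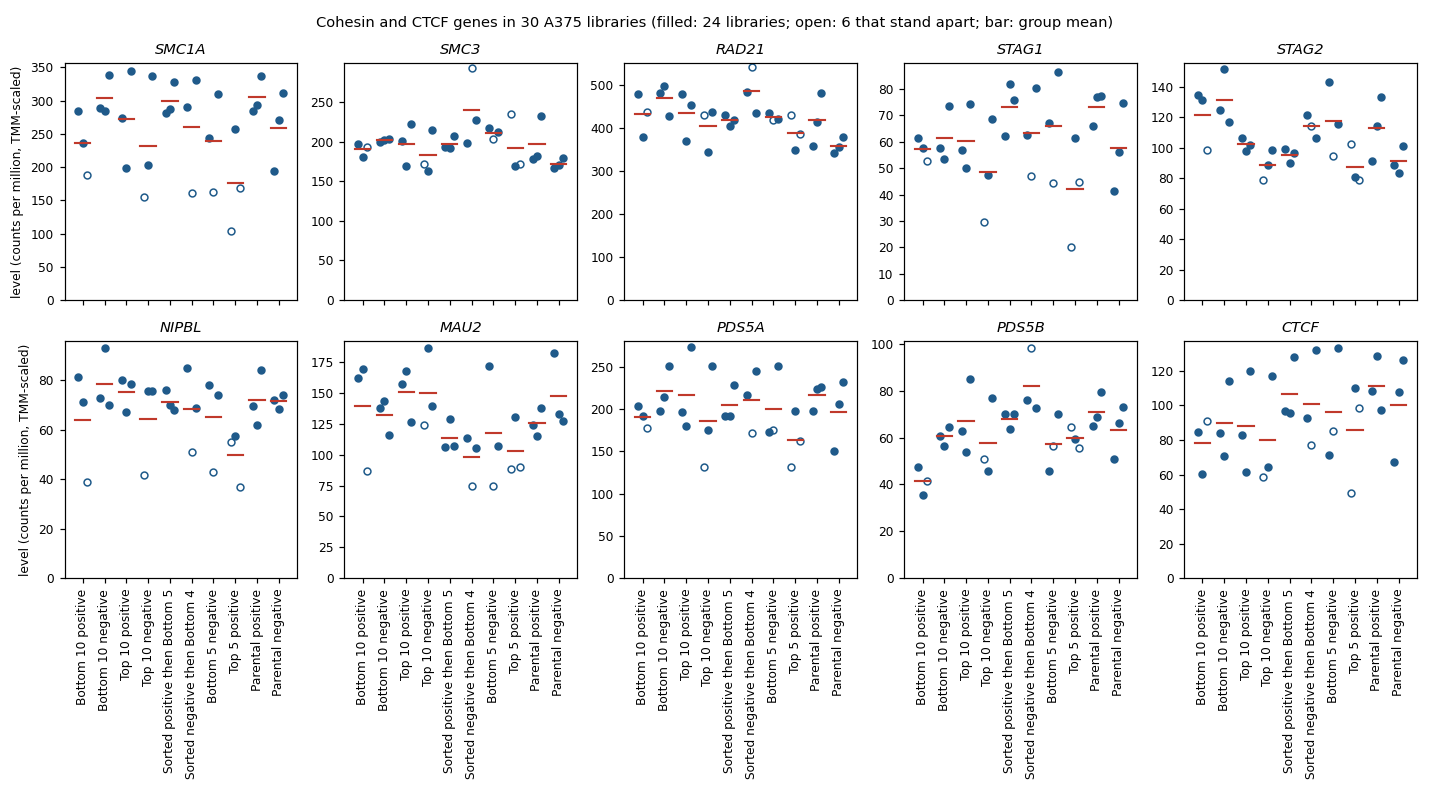
Levels of the 10 genes (y axis, TMM-scaled CPM) in the 10 groups (x axis), with 1 point per library, open points for the 6 libraries that stood apart and a red bar at each group mean. RAD21 is the most abundant, at 341 to 542 CPM, and open points lie low for SMC1A, STAG1 and NIPBL but not for RAD21 or SMC3.

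The levels of the ring genes were compared per kilobase of merged exon, since a longer transcript gives more reads. RAD21 had the highest level, at 68.5 CPM per kilobase over the 30 libraries, followed by SMC3 at 46.4, SMC1A at 24.6 and PDS5A at 16.4. STAG2 had 13.0 CPM per kilobase against 7.69 for STAG1, and MAU2 and CTCF lay between these at 11.5 and 9.22. NIPBL at 5.42 and PDS5B at 4.76 CPM per kilobase were the lowest. With the longest transcript as the length, RAD21 and SMC3 remained the highest, at 113 and 48.2 CPM per kilobase, and NIPBL and PDS5B were still the lowest, at 6.51 and 8.39. The order between them changed. PDS5A at 27.9 then lay above SMC1A at 26.0, and MAU2 at 25.6 and CTCF at 19.5 lay above STAG2 at 17.6.

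Variation between libraries differed widely among the genes. STAG1 spanned a 4.27-fold range over the 30 libraries and SMC1A a 3.34-fold range, whereas RAD21 spanned 1.59-fold and SMC3 1.79-fold. The means of the 10 groups differed at most 1.98-fold, for PDS5B, and 1.74-fold, for STAG1. When the groups were ordered by mean, neighbours in the order overlapped in 9 of 9 cases for every gene but SMC3, with 8 of 9. Differences between groups made up 60.8% of the variance of PDS5B and 60.4% of that of STAG2, but 25.1% of that of PDS5A, against a median of 35.7% over all tested genes.

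STAG2, the cohesin subunit that is often mutated in human tumours, had its highest group means in cells that crossed over 10 rounds. Bottom 10 negative libraries had 124.6, 151.9 and 116.6 CPM, against 78.9, 88.4 and 98.7 CPM in Top 10 negative libraries. Every crossed library was above every uncrossed one. Bottom 10 positive libraries had 134.5, 131.7 and 98.2 CPM, against 106.7, 98.2 and 101.9 CPM in Top 10 positive libraries, and here the groups overlapped. Replicate 3 of the crossed cells, one of the libraries that stood apart, was the low one. Among 6 pairs of libraries with the same replicate number, STAG2 was higher on the Bottom 10 side in 5. The same count was found for SMC1A, STAG1 and PDS5A, so it was not particular to STAG2, and the share over all genes was not computed.

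In the edgeR fit, STAG2 differed by 0.56 ± 0.17 on the log2 scale between Bottom 10 negative and Top 10 negative cells (SE, adjusted p = 0.138). In the positive sort the difference was 0.25 ± 0.17 (adjusted p = 0.78). Averaged over both sorts it was 0.41 ± 0.12, with a 95% interval of 0.15 to 0.66 and an adjusted p of 0.0627. The difference between the sorts was -0.32 ± 0.24, with an adjusted p of 0.998, so the sorts were not shown to differ. Of the 15381 genes, 1.33% passed the threshold in the negative sort, 0.943% in the positive sort and 3.97% in the mean of both, and 0 of the 10 genes did so in each. An unadjusted p under 0.05 was found for 1 of the 10 genes in the negative sort, 1 in the positive sort and 2 in the mean of both, against 9.04%, 9% and 12.8% of all genes. In the negative sort 1 of the 10 genes had crossed libraries all above the uncrossed ones, against 8.68% of all genes.

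The call on STAG2 depended on how the libraries were modelled. The shares of all genes that passed under these other settings are not given here, so the calls are not set against them. With replicate numbers as a block among the 10-round groups, where 5 of the 6 pairs of groups had libraries of equal number that deviated together, the difference averaged over sorts was 0.40 and passed in edgeR (adjusted p = 0.0327), as did that in the negative sort at 0.55 (adjusted p = 0.0491). In that blocked fit the adjusted p of the mean over sorts was 0.153 without number 1, 0.503 without number 2 and 0.00584 without number 3. DESeq2 gave adjusted p-values of 0.0236 for the mean of both sorts and 0.0490 for the negative sort. Without the 6 libraries that stood apart the difference averaged over sorts was 0.42 (edgeR adjusted p = 0.0360) and the one for negative cells 0.48 (edgeR adjusted p = 0.204), and without Bottom 10 positive replicate 3 alone it was 0.47 (edgeR adjusted p = 0.0263). Its sign was positive under every alternative, with an edgeR adjusted p of up to 0.503.

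**Figure D2:**
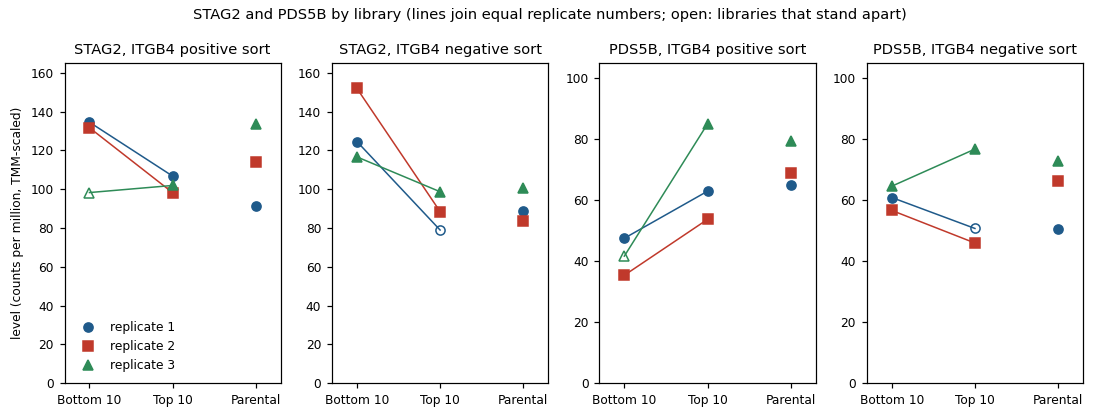
STAG2 and PDS5B levels (y axis, TMM-scaled CPM) in Bottom 10, Top 10 and Parental libraries of each ITGB4 sort, with 1 marker shape per replicate number, lines joining equal numbers and open markers for libraries that stood apart. STAG2 is higher in Bottom 10 than in Top 10 in 5 of 6 pairs, as are SMC1A, STAG1 and PDS5A, which are not plotted. All 3 Bottom 10 positive libraries have less PDS5B than any Top 10 positive or Parental positive library.

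Against unmigrated cells, Bottom 10 negative STAG2 was again above all 3 Parental negative libraries, which had 88.8, 83.3 and 100.8 CPM. The log2 fold change was 0.53 ± 0.17 (edgeR adjusted p = 0.284). In the positive sort the difference from Parental positive cells, at 91.3, 114.1 and 133.6 CPM, was 0.10 ± 0.17 (edgeR adjusted p = 0.884), and those groups overlapped. It was 0.22 without the libraries that stood apart (edgeR adjusted p = 0.441). In Bottom 5 negative cells STAG2 was at 143.5, 94.7 and 115.5 CPM, a difference of 0.37 ± 0.17 from Parental negative cells (edgeR adjusted p = 0.505). In Sorted negative then Bottom 4 cells it was at 121.3, 114.4 and 106.2 CPM, a difference of 0.32 ± 0.17 from the same Parental negative libraries (edgeR adjusted p = 0.297). Replicate 2 stood apart in both of these groups, and without all 6 such libraries the differences were 0.49 and 0.31 (edgeR adjusted p = 0.21 and 0.355). These comparisons share their Parental negative libraries, so they are not separate observations. Sorted positive then Bottom 5 cells did not share the direction, with 99.1, 89.7 and 96.7 CPM and a log2 fold change of -0.25 ± 0.17 against Parental positive cells (edgeR adjusted p = 1.00).

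Its paralog STAG1, which replaces STAG2 in a separate pool of cohesin, varied more between libraries. Bottom 10 negative libraries had 57.8, 53.4 and 73.5 CPM of STAG1, against 29.4, 47.3 and 68.8 CPM in Top 10 negative libraries. The groups overlapped and the log2 fold change was 0.34 ± 0.33 (edgeR adjusted p = 0.958). Without the 6 libraries that stood apart, among them the lowest Top 10 negative one, it was 0.08 (edgeR adjusted p = 0.994). The log2 ratio of STAG2 to STAG1 in CPM was positive in all 30 libraries, from 0.13 in Sorted positive then Bottom 5 replicate 2 to 2.33 in Top 5 positive replicate 1, a library that stood apart. By group it averaged 1.08 ± 0.16 in Bottom 10 positive and 0.78 ± 0.28 in Top 10 positive cells, and 1.09 ± 0.42 in Bottom 10 negative and 0.95 ± 0.45 in Top 10 negative cells (SD, n = 3 each).

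PDS5B, one of the paired PDS5 proteins that bind the ring beside RAD21, had its lowest levels in Bottom 10 positive cells. Those libraries had 47.5, 35.4 and 41.7 CPM, against 63.0, 53.7 and 85.0 CPM in Top 10 positive libraries and 65.1, 68.8 and 79.4 CPM in Parental positive libraries. All 3 crossed libraries lay below all 6 of the others, and PDS5B was the 1 gene of the 10 below all Top 10 positive libraries, against 7.58% of all genes. Bottom 10 negative libraries had 60.9, 56.7 and 64.6 CPM and overlapped both Top 10 negative libraries, at 50.7, 46.0 and 76.8 CPM, and Parental negative libraries, at 50.7, 66.2 and 72.9 CPM. In Sorted positive then Bottom 5 cells PDS5B had 70.1, 63.7 and 70.0 CPM, which overlapped Parental positive libraries, and differed by -0.07 ± 0.20 on the log2 scale (edgeR adjusted p = 1.00). Among crossed cells of the positive sort, the low values were thus those of the 10-round group. The Sorted positive then Bottom 5 cells differ from it in the order of sorting and migration as well as in rounds, so these cannot be told apart.

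The log2 fold change of PDS5B in Bottom 10 positive cells was -0.70 ± 0.21 against Top 10 positive (edgeR adjusted p = 0.14) and -0.78 ± 0.21 against Parental positive cells (edgeR adjusted p = 0.161). Against Bottom 10 negative cells it was -0.55 ± 0.20 (edgeR adjusted p = 1.00), again with no overlap, which in that comparison also held for SMC3, so for 2 of 10 genes against 5.84% of all genes. The differences between sorts in the Bottom 10 effect were -0.77 ± 0.29 relative to Top 10 (edgeR adjusted p = 0.998) and -0.72 ± 0.29 relative to Parental (edgeR adjusted p = 1.00), so neither passed the correction. With the replicate block among the 10-round groups, the difference from Top 10 positive was -0.67 and passed (edgeR adjusted p = 0.0253). Leaving out any 1 number from that fit gave adjusted p-values from 0.0506 to 0.298. Without the 6 libraries that stood apart the values were -0.72 against Top 10 positive and -0.80 against Parental positive cells (edgeR adjusted p = 0.226 and 0.188). In DESeq2 the difference from Parental positive passed (adjusted p = 0.0391) and that from Top 10 positive did not (adjusted p = 0.0578). For the blocked fit and for DESeq2, the share of all genes that passed is not given here.

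The low PDS5B values came together with lower levels across its chromosome. Over the 256 tested genes assigned to chromosome 13, the median log2 fold change of Bottom 10 positive cells was -0.41 against Top 10 positive and -0.31 against Parental positive cells, where the medians of all tested genes were 0.03 and 0.05. Of the 10 tested genes nearest to PDS5B in gene order, among them FRY, STARD13, RFC3 and NBEA, 8 had negative values in each of these comparisons, with medians of -0.42 and -0.32. In the negative sort the chromosome 13 medians were -0.22 against both Top 10 and Parental cells, while PDS5B itself was at 0.07 and -0.06. Whether the number of copies of the chromosome differs between these cultures was not tested. The median of the 499 tested genes of the X chromosome, which carries STAG2 and SMC1A, was 0.04 in the mean over sorts of Bottom 10 against Top 10.

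**Figure D3:**
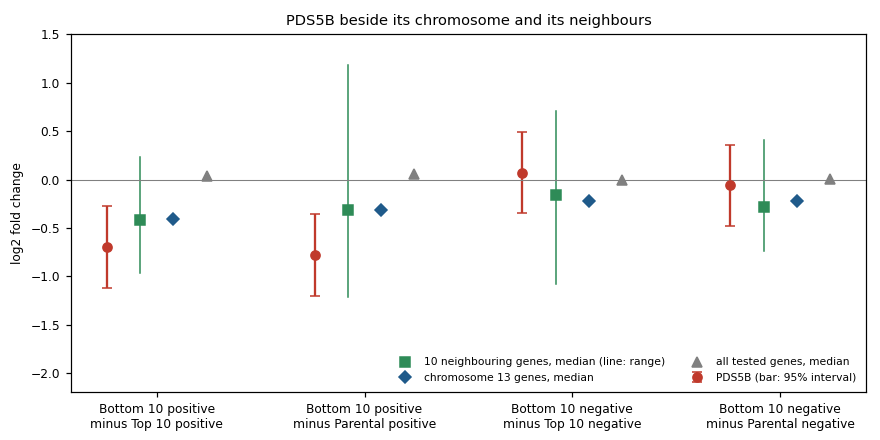
log2 fold change (y axis) of PDS5B with its 95% interval, of its 10 neighbouring genes (median and range), of the 256 chromosome 13 genes (median) and of all tested genes (median) in 4 comparisons (x axis). In the positive sort PDS5B lies at -0.70 and -0.78, beside chromosome 13 medians of -0.41 and -0.31.

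PDS5A, the more abundant paralog, did not share this pattern. Bottom 10 positive libraries had 202.9, 191.1 and 177.5 CPM, against 196.1, 179.7 and 273.1 CPM in Top 10 positive libraries. The groups overlapped, and the log2 fold change was -0.18 ± 0.23 (edgeR adjusted p = 0.919). The log2 ratio of PDS5B to PDS5A was lowest in Bottom 10 positive cells, at -2.09, -2.43 and -2.09, against -1.64, -1.74 and -1.68 in Top 10 positive and -1.60, -1.70 and -1.51 in Parental positive cells.

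The ring subunits SMC1A, SMC3 and RAD21 and the other regulators gave no value in the Bottom 10 to Top 10 comparisons with an unadjusted p under 0.05 in edgeR. RAD21, the subunit that separase cleaves, had 482.1, 497.8 and 429.8 CPM in Bottom 10 negative, against 431.3, 345.3 and 437.1 CPM in Top 10 negative libraries, and differed by 0.22 ± 0.15 on the log2 scale (edgeR adjusted p = 0.852). Relative to Parental negative cells, at 341.5, 357.1 and 379.6 CPM, RAD21 differed by 0.39 ± 0.15 without overlap (edgeR adjusted p = 0.468). For CTCF the mean over sorts of Bottom 10 against Top 10 was 0.00 with a 95% interval of -0.48 to 0.48. Bottom 10 positive libraries had 84.5, 60.1 and 91.0 CPM of CTCF, against 82.8, 61.6 and 120.2 CPM in Top 10 positive libraries.

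Relative to Parental cells, 0 of 10 genes passed in Bottom 10 negative, Bottom 10 positive or the mean of both, where 0.325%, 0.247% and 1.27% of all genes did. In Bottom 10 negative cells 3 genes, SMC3, RAD21 and STAG2, lay above all Parental negative libraries, against 9.03% of all genes. In Bottom 10 positive cells 4 genes, SMC1A, STAG1, PDS5B and CTCF, lay below all Parental positive libraries, against 9.08% of all genes. For SMC1A the margin was narrow, with 283.9 CPM in the highest Bottom 10 positive and 284.0 CPM in the lowest Parental positive library. The log2 fold changes of these 4 genes were -0.37, -0.36, -0.78 and -0.50. Without the 6 libraries that stood apart they were -0.25, -0.32, -0.80 and -0.64. Top 10 cells likewise gave 0 of 10 against Parental cells in the negative sort, the positive sort and the mean of both, with 0.0455%, 0.384% and 1.79% of all genes passing. The largest of those values was CTCF at -0.34 ± 0.33 in the positive sort (edgeR adjusted p = 0.837).

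**Figure D4:**
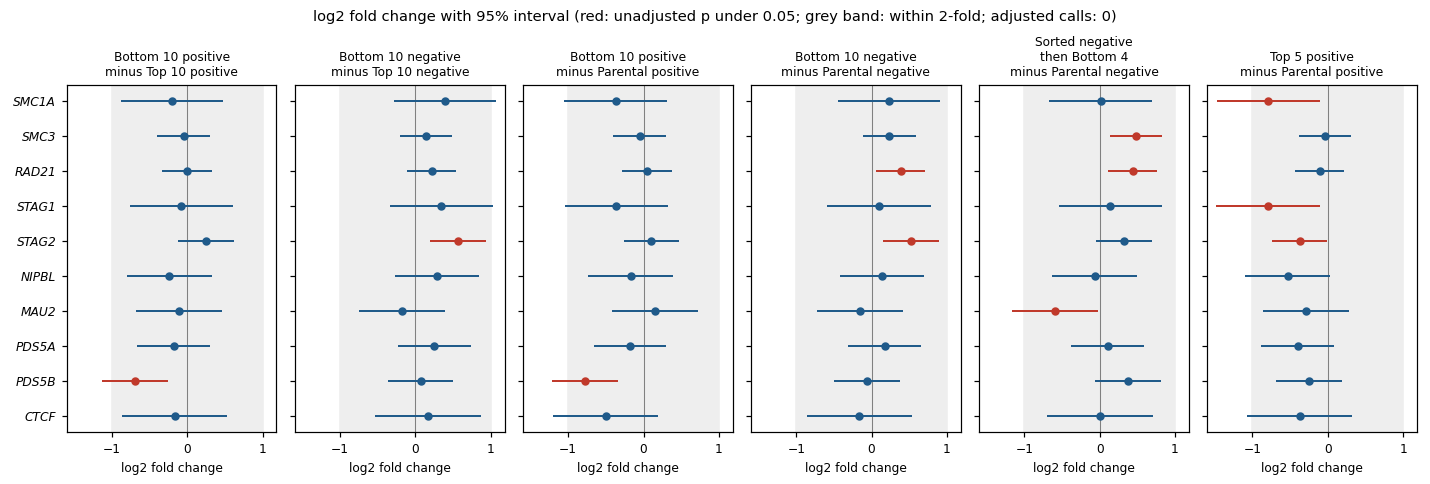
log2 fold change (x axis, point) with 95% interval (line) of the 10 genes (y axis) in 6 comparisons, red where the unadjusted p is under 0.05, with a grey band for changes within 2-fold. STAG2 at 0.56 in the negative sort and PDS5B at -0.70 in the positive sort stand out in the Bottom 10 to Top 10 panels, and in Top 5 positive against Parental positive cells all 10 values are negative with all libraries, as plotted, and 9 are without the 6 that stood apart.

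The sort itself gave small differences. Positive against negative cells gave 0 of 10 calls in Parental, Top 10 and Bottom 10 cells and in their mean, where 0.0585%, 0.013%, 0% and 0.364% of all genes passed. The median log2 fold change of the 10 genes was 0.19 in Parental cells and 0.21 in Top 10 cells, and -0.16 in Bottom 10 cells, beside all-gene medians of -0.01, 0.00 and 0.03. Top 10 negative replicate 1 and Bottom 10 positive replicate 3 stood apart. Without the 6 libraries that did so, the medians of the 10 genes were 0.19 in Parental, 0.05 in Top 10 and -0.11 in Bottom 10 cells. STAG1 had the largest value in the unmigrated cells, with 65.9, 76.9 and 77.2 CPM in Parental positive and 41.4, 56.2 and 74.8 CPM in Parental negative libraries. The groups overlapped and the log2 fold change was 0.35 ± 0.33 (edgeR adjusted p = 1.00). In the tests of whether the effects of Bottom 10 or Top 10 differed between sorts, 0 of 10 genes and 0% of all genes passed in edgeR. PDS5B was the 1 gene with an unadjusted p under 0.05 in the interactions of Bottom 10 with Top 10 and with Parental cells, against 2.87% and 3.01% of all genes, and DESeq2 also called none of the 10.

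In Sorted negative then Bottom 4 cells, 0 of 10 genes passed against Parental negative cells, where 2% of all genes did. SMC3 had 199.0, 292.9 and 227.3 CPM there, against 166.3, 170.0 and 178.9 CPM in Parental negative libraries, with no overlap and a difference of 0.48 ± 0.16 on the log2 scale (edgeR adjusted p = 0.126). RAD21 had 483.7, 542.0 and 435.8 CPM, also above all Parental negative libraries, with 0.44 ± 0.15 (edgeR adjusted p = 0.134, DESeq2 adjusted p = 0.0407). MAU2, the partner that stabilises the loader NIPBL, had 113.9, 74.7 and 105.1 CPM, against 182.6, 132.8 and 127.2 CPM in Parental negative libraries, with no overlap and -0.59 ± 0.27 (edgeR adjusted p = 0.23). Replicate 2 of this group was one of those that stood apart, and without all 6 such libraries the log2 fold changes were 0.30 for SMC3, 0.35 for RAD21 and -0.44 for MAU2. Here 3 genes lay above and 1 below all Parental negative libraries, against 9.45% and 8.95% of all genes.

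With all libraries, Top 5 positive cells had negative values for all 10 genes against Parental positive cells, with a median of -0.37 where the all-gene median was 0.02, and 0 of 10 passed, against 0.163% of all genes. SMC1A had 103.2, 257.9 and 168.5 CPM in Top 5 positive, against 284.0, 293.3 and 337.4 CPM in Parental positive libraries. STAG1 had 20.3, 61.6 and 44.7 CPM, against 65.9, 76.9 and 77.2 CPM. The log2 fold changes were -0.79 ± 0.32 for SMC1A and -0.80 ± 0.33 for STAG1 (edgeR adjusted p = 0.246 for both). In all, 5 genes, SMC1A, STAG1, NIPBL, PDS5A and PDS5B, lay below all Parental positive libraries, against 9.61% of all genes. The margin was narrow for PDS5A, with 197.9 CPM in the highest Top 5 positive and 198.0 CPM in the lowest Parental positive library. For PDS5B these were 64.4 and 65.1 CPM. Replicates 1 and 3 of Top 5 positive cells were among those that stood apart. Without all 6 such libraries the values for SMC1A and STAG1 were -0.25 and -0.26 (edgeR adjusted p = 1.00), 9 of the 10 genes were negative with a median of -0.25, MAU2 was at 0.05, and the remaining Top 5 positive library is then assumed to vary like the other groups. Without replicate 2 they were -1.17 and -1.18 (edgeR adjusted p = 0.0452 and 0.0464).

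Sorted positive then Bottom 5 cells were the closest to their Parental cells, with a median absolute log2 fold change of 0.05 over the 10 genes beside 0.17 over all genes. There 0 of 10 genes passed against Parental positive cells, and 0.039% of all genes did. Bottom 5 negative cells gave 0 of 10 against Parental negative cells, where 0.858% of all genes passed. In these cells 2 genes, SMC3 and RAD21, lay above all Parental negative libraries, against 7.15% of all genes. SMC3 had 216.8, 204.0 and 211.9 CPM in Bottom 5 negative libraries, a difference of 0.30 ± 0.16 on the log2 scale from Parental negative cells (edgeR adjusted p = 0.638). Without the libraries that stood apart it was likewise 0.30 (edgeR adjusted p = 0.526).

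The 6 libraries that stood apart divided the 10 genes. They had 103 to 188 CPM of SMC1A, against 193 to 344 CPM in the other 24 libraries, and 37.0 to 54.9 CPM of NIPBL, against 57.4 to 93.0 CPM. Neither range overlapped. In each of the 6, the levels of SMC1A, STAG1, NIPBL and MAU2 were below those of the group's libraries that did not stand apart. SMC3, RAD21 and PDS5B were below them in only 1 of 6. The 6 libraries were picked by a component score computed from the log levels of all tested genes, these 10 included. These separations therefore describe that choice and are not tests, and the share of all genes that separate likewise was not counted. The log2 ratio of SMC1A to SMC3, the paired ATPase arms of 1 ring, ranged from -1.19 in Top 5 positive replicate 1 to 0.80 in Parental negative replicate 3. TMM scaling factors ran from 0.818 to 0.966 in the 6 libraries and from 0.989 to 1.07 in the other 24. Reads that overlapped several genes made up 1.85 to 2.27% in the 6 and 1.54 to 1.74% in the 24. Reads that aligned to several places made up 9.16 to 13.3% and 7.80 to 9.21%, which overlap. The part of these library differences in the levels was not tested.

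Among the 24 other libraries, several of the genes moved together from library to library. SMC1A and PDS5A had a Pearson r of 0.89 over the log levels, SMC1A and STAG1 0.82, SMC1A and CTCF 0.81, CTCF and PDS5B 0.80, and SMC3 and RAD21 0.80. STAG2 followed RAD21 at 0.73 and NIPBL at 0.62, and its r with SMC1A was 0.21. MAU2 ran opposite to most, at -0.85 with CTCF and -0.75 with SMC1A, and 7 of its 9 coefficients were negative. That held for the 24 libraries only: over all 30 its r was -0.26 with CTCF, 0.32 with SMC1A and 0.64 with NIPBL. These coefficients are descriptive: the 24 libraries fall into 10 groups and share replicate numbers, so they are not independent points, and 45 pairs were computed.

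**Figure D5:**
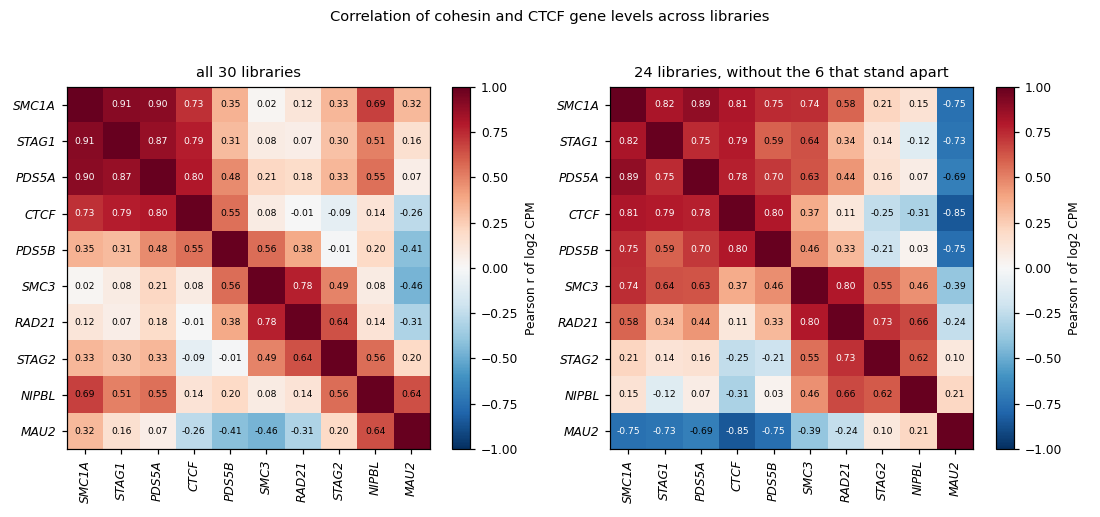
Pearson r of log2 CPM between the 10 genes over all 30 libraries (left) and over the 24 that did not stand apart (right), red for positive and blue for negative. In the right panel SMC1A, STAG1, PDS5A, CTCF and PDS5B form a positive block and MAU2 is negative to it, at -0.85 with CTCF.

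The same order was seen against proliferation genes, a list of 13 that includes MKI67, TOP2A and CCNB1. Over the 24 libraries the mean log level of that list had a Pearson r of 0.94 with SMC1A (Spearman 0.93), 0.85 with CTCF (0.86), 0.84 with PDS5A (0.89) and -0.85 with MAU2 (-0.82). Without the 2 libraries farthest from the median of the list these were 0.91, 0.86, 0.78 and -0.80. Over all 30 libraries r was lower in size, at 0.48 for SMC1A, 0.78 for CTCF, 0.61 for PDS5A and -0.60 for MAU2. STAG2 and NIPBL had r of 0.08 and -0.02. The list's mean was 7.53, 6.96 and 7.98 log2 CPM in Bottom 10 positive and 7.36, 6.64 and 7.96 in Top 10 positive libraries, and 7.65, 7.45 and 7.91 in Bottom 10 negative and 7.30, 6.35 and 7.88 in Top 10 negative libraries. Replicate 3 had the highest value in each of these 4 groups. SMC1A, PDS5A and CTCF were each highest in replicate 3 in 8 of 10 groups. Of all tested genes, 7.69% were highest in replicate 3 in at least 8 groups. The part of cell division in these values was not tested.

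By the correlation of log levels over the 30 libraries, among 11019 genes with a mean of at least 5 CPM, the genes most like SMC1A were SUPT16H and KIF24, both at 0.97. Those most like CTCF were TCOF1 and PRPF4 at 0.96, those most like PDS5A were RIF1 and AHCTF1 at 0.95, and those most like STAG1 were TGFBRAP1 and DYRK3 at 0.95. MAU2 was closest to ITPRIP at 0.97 and ZNF469 at 0.96. STAG2 was closest to CFAP97 at 0.85 and RFC1 at 0.84, and PDS5B to RBM26 at 0.87 and SON at 0.86. SMC3 was closest to UBE3A at 0.85, and RAD21 to CTNNAL1 at 0.87 and STK26 at 0.85. NIPBL was closest to GPATCH8 and MYO9A at 0.95, which became 0.66 and 0.78 without the 6 libraries that stood apart.

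The promoters of STAG2 and PDS5B, which passed the threshold under some of the other settings, and of SMC1A, STAG1, PDS5A and CTCF, which moved together, are shown from 250 bases before to 50 after the first listed start of each gene (RefSeq, GRCh38.p14), each read 5′ to 3′ on the gene's strand. Of the 10 genes, 9 matched a promoter by symbol. Capitals mark matches on either strand to the GC box GGGCGG, the CCAAT box CCAAT, the ETS motif CCGGAAG, the E2F motifs TTTCCCGC and TTTGGCGC, the CRE motif TGACGTCA and the YY1 motif AAGATGGCG.
STAG2 (chrX:123960310-123960609, + strand): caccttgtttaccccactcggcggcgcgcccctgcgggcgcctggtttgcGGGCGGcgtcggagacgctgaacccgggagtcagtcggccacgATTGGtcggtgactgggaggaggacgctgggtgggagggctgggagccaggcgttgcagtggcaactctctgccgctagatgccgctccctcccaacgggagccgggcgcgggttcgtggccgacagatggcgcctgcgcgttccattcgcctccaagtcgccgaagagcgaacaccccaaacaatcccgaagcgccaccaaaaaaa
PDS5B (chr13:32586202-32586501, + strand): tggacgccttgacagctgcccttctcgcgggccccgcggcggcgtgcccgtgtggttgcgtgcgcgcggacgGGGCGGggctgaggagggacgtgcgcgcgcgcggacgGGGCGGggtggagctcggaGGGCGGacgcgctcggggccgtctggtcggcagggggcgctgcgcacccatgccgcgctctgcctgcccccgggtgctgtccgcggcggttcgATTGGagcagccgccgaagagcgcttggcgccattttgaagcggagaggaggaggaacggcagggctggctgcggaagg
SMC1A (chrX:53422679-53422978, - strand): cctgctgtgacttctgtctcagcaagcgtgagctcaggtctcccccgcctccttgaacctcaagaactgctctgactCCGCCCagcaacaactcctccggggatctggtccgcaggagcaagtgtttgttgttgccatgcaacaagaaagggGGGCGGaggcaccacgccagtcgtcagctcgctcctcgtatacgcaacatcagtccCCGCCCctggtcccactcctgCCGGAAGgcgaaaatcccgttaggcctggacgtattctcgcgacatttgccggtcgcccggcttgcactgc
STAG1 (chr3:136752329-136752628, - strand): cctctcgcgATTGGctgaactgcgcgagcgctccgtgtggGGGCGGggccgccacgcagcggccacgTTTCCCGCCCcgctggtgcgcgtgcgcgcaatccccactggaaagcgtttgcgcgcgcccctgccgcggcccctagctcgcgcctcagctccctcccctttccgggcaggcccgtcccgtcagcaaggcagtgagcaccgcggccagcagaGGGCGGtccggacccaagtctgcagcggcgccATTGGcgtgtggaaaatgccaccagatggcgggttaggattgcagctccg
PDS5A (chr4:39977862-39978161, - strand): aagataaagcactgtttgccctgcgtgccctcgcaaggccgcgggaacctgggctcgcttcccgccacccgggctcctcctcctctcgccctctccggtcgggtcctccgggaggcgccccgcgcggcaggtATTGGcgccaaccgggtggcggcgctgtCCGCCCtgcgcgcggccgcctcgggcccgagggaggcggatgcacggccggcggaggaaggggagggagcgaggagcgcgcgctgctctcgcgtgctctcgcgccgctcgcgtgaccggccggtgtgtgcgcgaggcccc
CTCF (chr16:67562276-67562575, + strand): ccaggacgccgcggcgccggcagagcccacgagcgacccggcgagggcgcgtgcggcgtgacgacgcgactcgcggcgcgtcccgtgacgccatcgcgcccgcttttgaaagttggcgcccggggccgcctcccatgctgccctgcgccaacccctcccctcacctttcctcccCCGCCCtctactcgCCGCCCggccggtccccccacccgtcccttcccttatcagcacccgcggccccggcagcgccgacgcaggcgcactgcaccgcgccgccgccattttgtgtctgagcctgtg

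The 6 promoters shared the GC box, with 1 match in STAG2 and PDS5A, 2 in CTCF and 3 in PDS5B, SMC1A and STAG1, and 45% of the 35116 promoters in the table hold this motif. The CCAAT box was found in STAG2, PDS5B, PDS5A and 2 times in STAG1, and 34.6% of all promoters hold it. In the STAG1 promoter the E2F match TTTCCCGC overlaps a GC box on the other strand, and 2.27% of all promoters hold an E2F match. The ETS motif was found in SMC1A and in 10.3% of all promoters. The CRE and YY1 motifs, held by 1.85% and 1.75% of all promoters, were in none of the 6 windows. In these printed windows, the letters that STAG1, PDS5A, CTCF and SMC1A had in common were thus those of the GC box. SMC1A and STAG2 have further listed starts, and window 2 of SMC1A and window 3 of STAG2, not printed, each hold 1 E2F match.

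Other genes of the pathway gave no call. Of 7 cohesin regulators, which include the release factor WAPL, the acetyltransferases ESCO1 and ESCO2, the deacetylase HDAC8 and the mitotic protectors CDCA5, SGO1 and SGO2, 0 passed in any of the 20 comparisons in edgeR. The same held for the cleavage genes ESPL1 (separase) and PTTG1 (securin), 8 condensin genes, 7 genes of the SMC5/6 complex and 7 CTCF-linked factors such as YY1, ZNF143 and MAZ. In the mean over sorts of Bottom 10 against Top 10, all 8 condensin genes had positive values, with a median of 0.23, and the 13 proliferation genes had a median of 0.28, beside 0.01 over all genes. By sort, 3 of the 8 condensin genes were positive among positive cells, with a median of -0.02, and all 8 among negative cells, with a median of 0.37. The proliferation genes had medians of 0.26 in the positive sort and 0.37 in the negative sort. Without the 6 libraries that stood apart, the mean over sorts was positive for 6 of the 8 condensin genes, with a median of 0.12, and the proliferation medians were -0.16 in the positive and 0.38 in the negative sort. With all libraries, the medians in the mean over sorts of Bottom 10 against Top 10 were 0.17 for the cohesin regulators and 0.11 for the SMC5/6 genes. They were -0.03 for the CTCF-linked factors and 0.04 for the 10 cohesin and CTCF genes. Without the 6 libraries that stood apart they were, in the same order, -0.004, 0.03, -0.05 and 0.01. In Sorted negative then Bottom 4 against Parental negative cells, all 7 SMC5/6 genes had positive values, with a median of 0.56 beside 0.01 over all genes, and 5 of them had an unadjusted p under 0.05 in edgeR, against 19.5% of all genes. Replicate 2 of the crossed cells stood apart, and without the 6 libraries that did so all 7 remained positive, with a median of 0.29. In edgeR 2 of the 7 then had an unadjusted p under 0.05, as did 3 of the 10 cohesin and CTCF genes. The share of all genes under 0.05 in that fit was not counted.

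The germline forms of the ring were nearly absent. SMC1B and RAD21L1 had at most 2 counts in any library and CTCFL, the testis paralog of CTCF, at most 3, with 0 counts in 26, 24 and 19 of the 30 libraries. REC8 and STAG3 had medians of 1.12 and 0.45 CPM. RAD21-AS1, an antisense transcript at the RAD21 locus, had at most 22 counts, and whether the counting used strand was not given in the sources used here.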

How the data were processed

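Sequencing of polyadenylated RNA from 30 A375 libraries was analysed, 3 in each of 10 groups named in the sample titles. The values deposited by the authors are unnormalised read counts for each gene symbol, with a separate file for every library. The submitters' processing notes name STAR, HTSeq, DESeq and the build hg19, with no versions, and the annotation and strand setting are not given in the sources used here. Gene counts ran from 14258919 to 29134945 per library, and 22.1 to 31.8% of reads were assigned to no gene and left out. No pair of replicates was a copy of another, with a chi-square per degree of freedom of at least 11.6.

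Genes were filtered with edgeR (minimum count 10, minimum total 15), scaled with TMM factors and fitted in 1 quasi-likelihood model over all 10 groups (edgeR 4.0.16, R 4.3.3). The 20 comparisons, 13 of groups, 4 of means over groups and 3 interactions, were called at a Benjamini-Hochberg adjusted p under 0.05, adjusted across the 15381 genes kept. Each SE was computed as the size of the log2 fold change over the root of F, and a prior count of 2 entered log levels. The members and lists were chosen with earlier results of these data known, so their counts are descriptions. The named genes were the 10 members and, for each, the 2 genes of highest correlation, of which 1 is not reported here. Chromosomes and gene order came from RefSeq (GRCh38) by symbol, matched for 91.9% of tested genes, with no coordinates used because the builds differ. Lengths came from GENCODE.

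The labels state no pairing of replicate numbers. Group means removed, libraries of equal number correlated above 0.1 for all 3 numbers in 5 of the 6 pairs of 10-round groups (0.26 to 0.79), but not between Bottom 10 positive and Top 10 negative (lowest -0.12), so blocked fits of these groups are given where they changed a call. Alternatives were DESeq2 1.42.0, RLE factors, no filter, only the compared groups, replicate blocks, leaving out each library and leaving out the 6 libraries that stood apart. A block in Bottom 5 negative against Parental negative, and blocked fits without each number, were added after seeing the data. The fit was tested on simulated data.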

Additional observations from a re-analysis of the deposited data

How the results depend on the processing

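In the edgeR fit over all groups 0 of the 10 genes passed in any of the 20 comparisons, and this held with RLE factors, without the filter on low counts, with only the compared groups in the fit and with a replicate block over all libraries. The block limited to Bottom 5 negative and Parental negative cells also called 0. In Bottom 10 against Top 10, mean of both sorts, 1 gene (STAG2) passed without the 6 libraries that stood apart, in the replicate block of the 10-round groups and in DESeq2. In the negative sort 1 gene (STAG2) passed in that block and in DESeq2, and in the positive sort 1 gene (PDS5B) passed in that block. DESeq2 also called 1 gene in Bottom 10 positive against Parental positive (PDS5B) and 1 in Sorted negative then Bottom 4 against Parental negative (RAD21). Leaving out 1 library at a time gave 0 to 1 calls for Bottom 10 against Top 10, mean of both sorts, and 0 to 2 for Top 5 positive against Parental positive, and leaving out 1 replicate number within the block gave 0 to 1 for Bottom 10 against Top 10 in the negative sort and in the mean of both. The replicate block changed no other call. No called value changed sign. The shares of all genes called under these settings are not given here, so the counts of calls are not set against them. The lowest count of any of the 10 genes was 253. The causes of these differences between settings were not tested.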
